A study of Mus musculus with 10 samples.

Results

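The genes described here build and guard the primary cilium: the intraflagellar transport complexes IFT-B and IFT-A, the motors that carry them, the BBSome with its helper proteins, and the transition zone at the base of the cilium. They were chosen by name as 47 genes of these complexes. The RNA came from whole kidneys of mice with and without a knockout of Lkb1 (gene symbol Stk11) directed to the kidney tubules. A gene was measured where a row of the array table was annotated with its symbol alone, and its value was the mean of such rows. This held for 46 of the 47 genes, among 30063 genes in all, and each of the 46 had 1 row. The expression of Arl6, the small GTPase that recruits the BBSome to membranes, was not analysed here, and Arl6 enters only the promoter search.

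Whole kidneys of 5-week-old mice were compared between 5 control and 5 knockout samples, with 1 array each, here called kidneys and numbered as in the labels. The knockouts carried floxed Lkb1 alleles and the KspCre transgene, in which the promoter of the tubule cadherin gene Cdh16 drives Cre. Cre was thus directed to tubule cells, and which cells lost the gene was not measured here. The controls were littermates with 1 or 2 floxed alleles and no Cre, so an effect of Cre itself and an effect of Lkb1 loss cannot be told apart. The sample titles speak of knockdown (KD) and wildtype, and the design text of MDCK cells, whereas the protocol describes these knockout mice. Strain is given as C57Bl/6N, although the floxed line had a mixed background. The labels number the samples of a group but do not say that each came from a different mouse, so p-values measure the spread between these samples, which may be partly technical.

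The primary cilium is a single antenna-like projection on the apical side of most tubule cells. IFT-B trains, pulled by kinesin-2, carry cargo to the tip, and IFT-A trains, pulled by dynein-2, carry it back, while the BBSome moves membrane proteins out of the cilium and the transition zone decides what may enter. Inherited defects in these genes cause ciliopathies, among them nephronophthisis, Bardet-Biedl, Joubert and Meckel syndromes, often with kidney disease. RFX transcription factors switch on many of these genes through a promoter element called the X-box.

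X-box matches were found for 20 of the 42 genes with a promoter sequence. The search used 300-base promoters from RefSeq (GRCm38.p6), which run from 250 bases before a gene's start to 50 bases after it, and 42 of the 47 genes had at least 1. A gene with several starts was counted by its best match, which concerned 4 of the 42 genes (46 promoters) and 4163 of all 27025 genes (32851 promoters). Ift80, Ift81, Ift122, Dync2li1 and Tmem67 had no entry. The motif was GTTNCC, then 2 free bases, then its reverse complement GGNAAC, with 10 fixed letters, so that it reads the same on both strands. All fixed letters were matched in 4 of the 42 genes (9.52%), against 143 of 27025 genes with a promoter (0.529%). The 20 with up to 2 mismatches made up 47.6%, against 15.8% of all genes. These are matches of letters and were not tested as binding sites.

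The 4 complete matches, in Ahi1, Bbs7, Mks1 and Tctn1, are shown with the site of Bbs1, which had 1 mismatch. Bbs1 was added because, like Ahi1 and Bbs7 and unlike Mks1 and Tctn1, it was among the genes that fell in the knockouts. It was 1 of 9 genes whose best match had 1 mismatch. The others, B9d1, B9d2, Bbs4, Ift22, Ift57, Tctn2, Tmem216 and Tmem231, were not among the genes that fell. Each sequence reads 5′ to 3′ on the strand of its gene, with the site in capitals, its free bases included, and the mismatched letter of Bbs1 in lower case within it.
Ahi1: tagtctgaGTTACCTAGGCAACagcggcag
Bbs7: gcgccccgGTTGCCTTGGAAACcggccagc
Mks1: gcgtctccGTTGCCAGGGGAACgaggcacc
Tctn1: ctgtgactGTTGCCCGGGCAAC
Bbs1: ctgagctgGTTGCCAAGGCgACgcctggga
The Ahi1 window lies at chr10:20952560-20952589 on the plus strand, and its site begins 21 bases after the start. The Bbs7 window lies at chr3:36613489-36613518 on the minus strand, and its site begins 121 bases before the start. The Mks1 window lies at chr11:87853183-87853212 on the plus strand (24 bases before the start), and the Tctn1 window at chr5:122264411-122264432 on the minus strand (36 bases after it). The Bbs1 window lies at chr19:4906605-4906634 on the minus strand, and its site begins 1 base after the start. These starts are those of the promoter sequences searched, which can lie inside the gene coordinates given below.

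By complex, all 10 transition zone genes with a promoter had a match with up to 2 mismatches, 3 of them complete. The same was found for 5 of 11 IFT-B genes, 2 of 6 IFT-A genes, 3 of 11 BBSome genes and 0 of 4 motor genes. Such a match was found in 3 of 6 genes that fell in the knockouts and in 17 of 35 others that were measured. Of the RFX genes listed for this report, Rfx1, Rfx2, Rfx3, Rfx5 and Rfx7, none passed the test described next. Other RFX genes were not examined. In limma Rfx2 had a log2 difference of -0.10 (adjusted p = 0.17) and Rfx3 of -0.08 (adjusted p = 0.31).

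**Figure D1:**
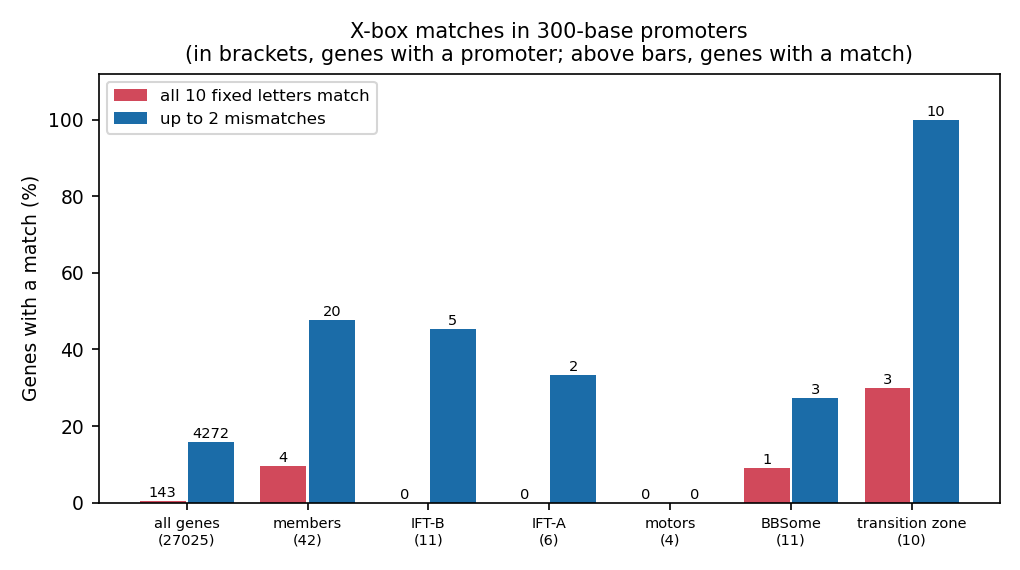
Share of genes, in percent, whose 300-base promoter holds the X-box motif with all 10 fixed letters matched (red) or with up to 2 mismatches (blue), for all genes with a promoter, for the ciliary genes together (members) and for each complex; numbers above bars are genes. The 10 transition zone genes all have a match with up to 2 mismatches, against 15.8% of all genes.

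In each complex at least 1 gene was slightly lower in the knockouts, and none was called higher. Of the 46 genes measured, 7 fell, 0 rose and 39 did not pass (limma, two-sided, Benjamini-Hochberg adjusted p under 0.05 over all genes). The genes that fell were Ift172, Ift122, Dync2h1, Bbs1, Bbs7, Bbs9 and Ahi1, and their knockout level was 84.4% to 88.8% of the control level. A share of 15.2% thus fell, against 2.67% of all genes tested. Once genes dimmer than the median negative control probe set were left out, 8 of the 46 (17.4%) fell, against 4.73% of the genes kept. None rose, against 5.37% of all genes (8.97% without the dim ones). At an unadjusted limma p under 0.05, 16 of the 46 were lower and 1 was higher, against 3624 and 3289 of all 30063 genes. The log2 difference was negative in 38 of 46 genes, or 82.6%, against 61.8% of all genes, and its median was -0.09 against -0.03. Such a share was not particular to the 46 genes. It was 84.2% (16 of 19) in other subunits of the same complexes. In axoneme genes of motile cilia, 8 of 17 of them dimmer than the median negative control probe set, it was 94.1% (16 of 17, median -0.063). It was lower in genes for ciliary entry and the inversin compartment (10 of 13) and for ciliary transcription factors (3 of 6). In bulk kidney RNA, fewer cells of a type and less RNA per cell cannot be told apart.

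The calls rested on small margins, with adjusted p between 0.0142 and 0.0482. Ift122 kept its call under all 18 alternatives tried, with adjusted p from 0.00213 to 0.0407. With each array centred on its own median it was the only gene of the 46 called, a share of 2.17% against 2.03% of all genes, so the excess over the background was not seen there. Leaving out 1 kidney gave between 1 gene (without any of control 2, control 4, knockout 1, knockout 2 or knockout 3) and 9 genes (without knockout 5). In the fits with 1 gene the share was again 2.17%, against 1.45% to 2.54% of all genes, and without knockout 5 it was 19.6% against 4.9%. The count was 2 without control 3 or control 5 (4.35%, against 1.57% and 2.11% of all genes). It was 3 without knockout 4 (6.52% against 1.93%) and 4 without control 1 (8.7% against 1.65%). Complete separation of the groups, with every knockout below every control, was seen for Ift172 and Ift122 alone, or 4.35% of the 46, near the 3.51% of all genes. In 0 of the 46 was every knockout above every control, against 5.08% of all genes.

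**Figure D2:**
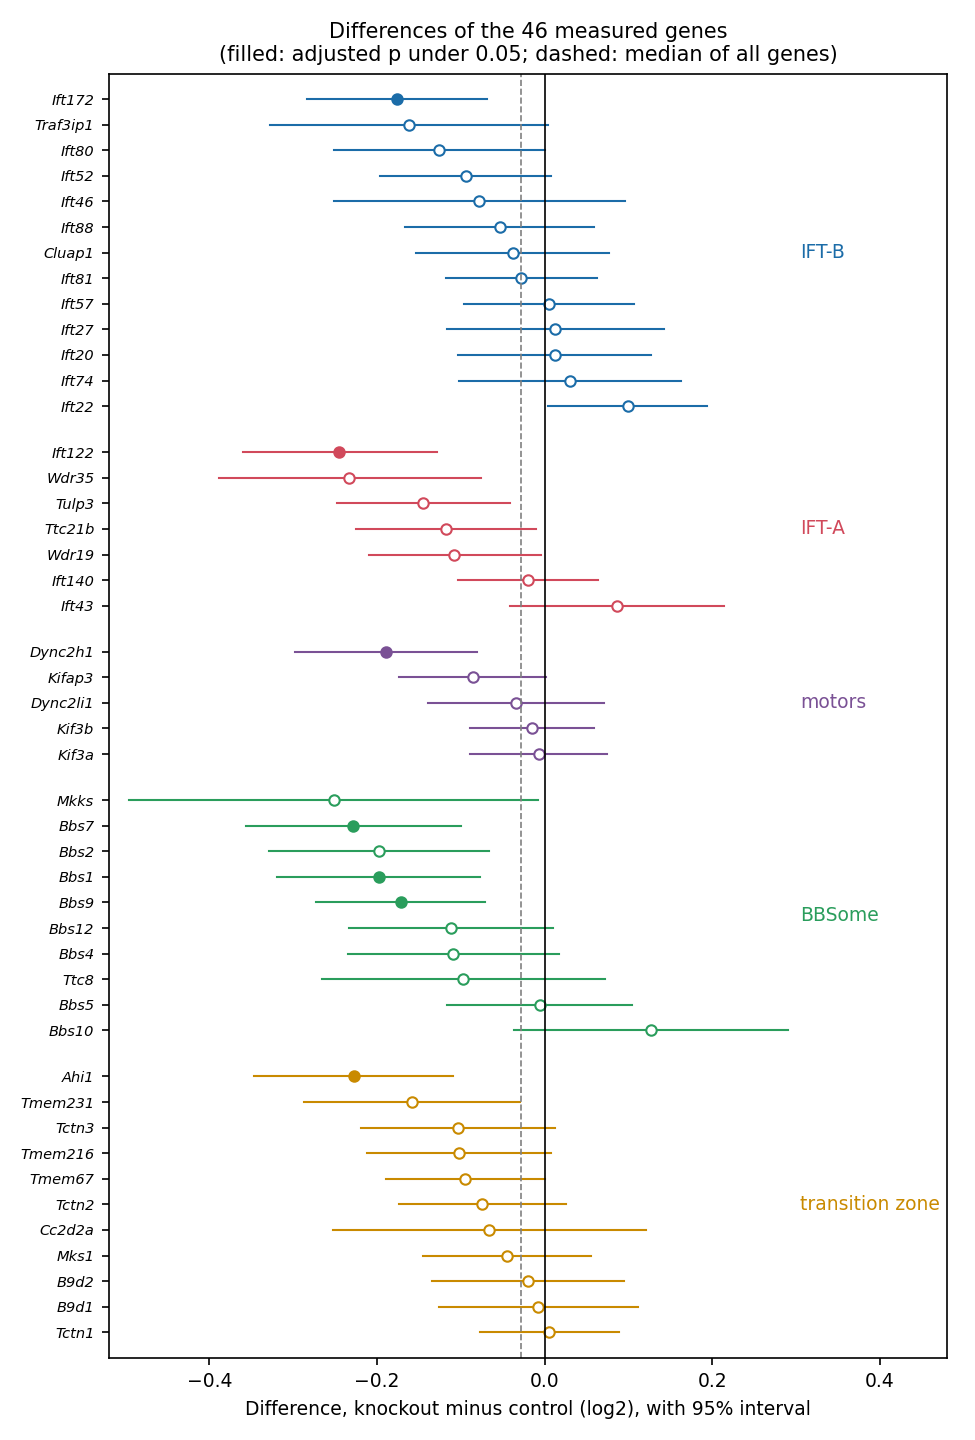
Log2 difference, knockout minus control, of each of the 46 measured genes by complex, with its 95% interval; filled points passed the threshold and the dashed line is the median of all genes (-0.03). In 38 of 46 genes the point lies left of 0, and the 7 filled points lie between -0.24 and -0.17.

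**Figure D3:**
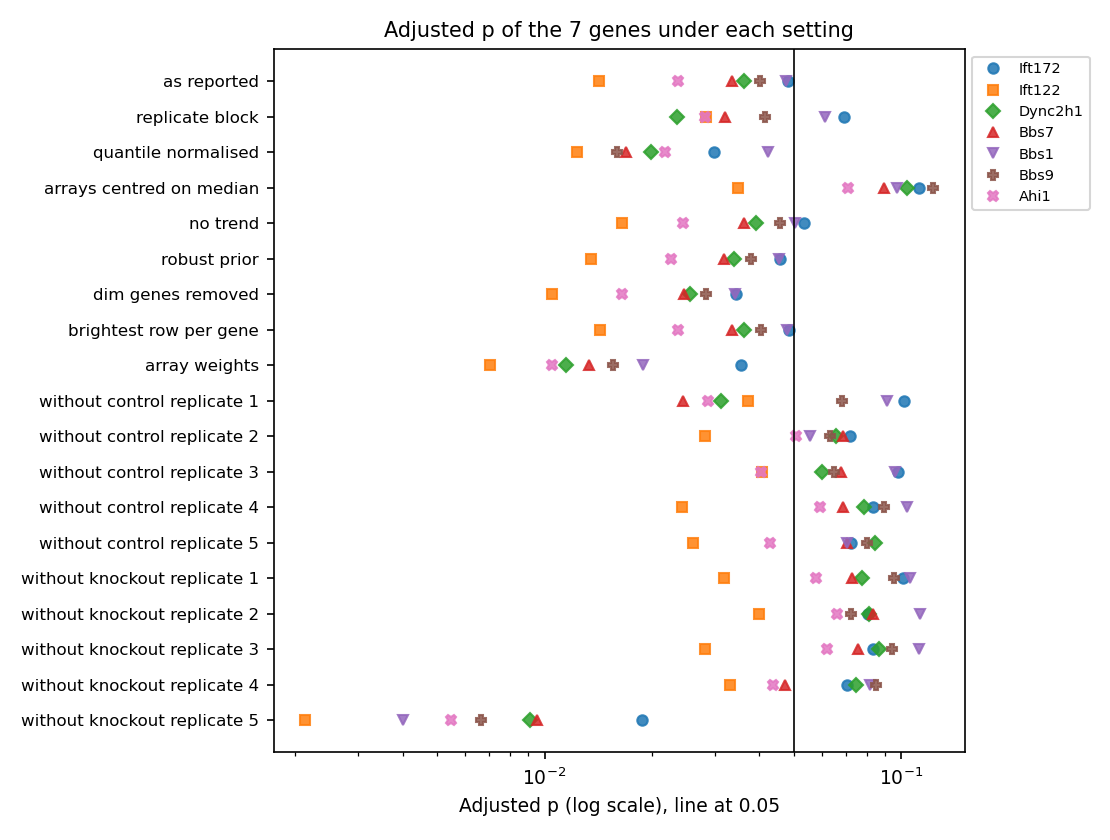
Adjusted p, on a log scale, of the 7 genes that fell, under the reported fit and the 18 alternatives; the line marks 0.05. Ift122 stays left of the line throughout, from 0.00213 to 0.0407, whereas the other genes cross it under several settings.

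In IFT-A, the complex that returns cargo from the tip and brings membrane receptors into the cilium, 1 of 7 genes fell and 6 did not pass, with a median difference of -0.12. Ift122, a core subunit on chromosome 6 (115853379 to 115926699, mm10), measured 8.49, 8.42, 8.45, 8.38 and 8.39 in controls 1 to 5 and 8.20, 8.17, 8.03, 8.17 and 8.34 in knockouts 1 to 5, as RMA log2 values. All knockouts lay below all controls, with knockout 3 lowest and knockout 5 nearest the controls. The means were 8.43 ± 0.05 and 8.18 ± 0.11 (SD, n = 5 each), which put the knockouts at 84.4% of the controls (95% interval 77.9% to 91.4%). For this gene limma gave a log2 difference of -0.24 (SE 0.05, adjusted p = 0.0142).

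Wdr35, a peripheral subunit known as IFT121, had a difference of nearly the same size but did not pass. The controls measured 8.37, 8.34, 8.43, 8.47 and 8.41 and the knockouts 8.18, 8.11, 7.95, 8.17 and 8.43. Knockouts 1 to 4 were below every control while knockout 5 was within the control range. The log2 difference was -0.23 (SE 0.07, limma adjusted p = 0.0694), and adjusted p reached 0.149 among the alternatives. It passed under 2 of the 18, with array weights and without knockout 5 (-0.30, adjusted p = 0.004).

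The other IFT-A genes, like all the remaining genes of the complexes below, are given to account for every gene. Tulp3, the adaptor that links IFT-A to membrane cargo, had a difference of -0.14 (adjusted p = 0.0871 in limma), Ttc21b (IFT139) of -0.12 and the core subunit Wdr19 (IFT144) of -0.11. For Ift140, also a core subunit, the difference was -0.02 with a 95% interval from -0.10 to 0.06. Ift43, a small peripheral subunit, stood at 0.09 (95% interval -0.04 to 0.21). The 3 core subunits thus ranged from -0.24 to -0.02.

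In IFT-B, the complex of trains bound for the tip, 1 of 13 genes fell and 12 did not pass, with a median difference of -0.04. Ift172, the largest subunit and part of the peripheral subcomplex, lies on chromosome 5 (31253279 to 31291391). It measured 8.03, 7.98, 7.99, 7.98 and 7.95 in the controls and 7.78, 7.85, 7.65, 7.85 and 7.92 in the knockouts, so that the groups did not overlap, though knockout 5 lay just below the lowest control. The knockout level was 88.5% of the controls (95% interval 82.1% to 95.4%), with a log2 difference of -0.18 (SE 0.05, limma adjusted p = 0.0482). This call was kept under 6 of the 18 alternatives, with adjusted p up to 0.112 in the others, among them the fit with the replicate number as a block (adjusted p = 0.0692).

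Ift22, a Rab-like GTPase also known as Rabl5, had the next smallest p in IFT-B and pointed the other way. Its controls measured 8.66, 8.74, 8.81, 8.69 and 8.82 and its knockouts 8.79, 8.91, 8.87, 8.82 and 8.83. The groups overlapped, and the difference of 0.10 (SE 0.04, limma adjusted p = 0.198) did not pass.

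Among the other peripheral IFT-B subunits, Traf3ip1 (IFT54) had a difference of -0.16, Ift80 of -0.13 and Cluap1 (IFT38) of -0.04. Ift57 (0.01) and Ift20 (0.01), the latter also found at the Golgi, were close to 0. The 7 core subunits had a median of -0.03 and 0 calls. They include Ift88, whose mutation gives mice cystic kidneys (-0.05, 95% interval -0.17 to 0.06), the tubulin-binding partners Ift74 (0.03) and Ift81 (-0.03), Ift52 (-0.09), Ift46 (-0.08) and the GTPase Ift27 (0.01).

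Of the motors, 1 of 5 genes fell. Dync2h1, the heavy chain of dynein-2 on chromosome 9 (6928550 to 7178306), measured 7.61, 7.73, 7.67, 7.74 and 7.78 in the controls and 7.50, 7.51, 7.42, 7.50 and 7.65 in the knockouts. Knockouts 1 to 4 were below every control, and knockout 5 lay above control 1. The log2 difference was -0.19 (SE 0.05, limma adjusted p = 0.0362), or 87.7% of the controls (95% interval 81.3% to 94.5%), and 9 of 18 alternatives kept the call. The light intermediate chain gene Dync2li1 differed by -0.03 (95% interval -0.14 to 0.07).

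The kinesin-2 genes did not pass. Kifap3, the accessory subunit, measured 8.20, 8.34, 8.29, 8.34 and 8.31 in the controls and 8.21, 8.21, 8.15, 8.25 and 8.24 in the knockouts, with groups that overlapped through control 1. Its difference was -0.09 (SE 0.04, limma adjusted p = 0.226). The motor subunits Kif3a (-0.01, 95% interval -0.09 to 0.07) and Kif3b (-0.01, 95% interval -0.09 to 0.06) had among the narrowest intervals of the 46 genes.

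In the BBSome, 3 of 10 measured genes fell and 7 did not pass, with a median difference of -0.14, and all 3 belong to the 7 core subunits. Bbs7, on chromosome 3 (36573142 to 36613492), whose promoter holds a complete X-box match, measured 7.72, 7.94, 7.84, 7.87 and 7.88 in the controls and 7.60, 7.58, 7.47, 7.68 and 7.77 in the knockouts. Knockout 5 was above control 1, while the other knockouts were below all controls. The difference was -0.23 (SE 0.06, limma adjusted p = 0.0335), or 85.3% of the controls (95% interval 78.1% to 93.3%), and the call was kept under 10 of 18 alternatives.

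Bbs1, the subunit that binds the GTPase Arl6, lies on chromosome 19 (4886878 to 4906653). Its controls measured 7.55, 7.49, 7.55, 7.62 and 7.50 and its knockouts 7.28, 7.30, 7.25, 7.36 and 7.53, with knockout 5 inside the control range and the other knockouts below it. The difference was -0.20 (SE 0.06, limma adjusted p = 0.0476), or 87.2% of the controls (95% interval 80.2% to 94.8%). It passed under 6 of 18 alternatives, and with the replicate number as a block adjusted p was 0.0612.

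Bbs9, on chromosome 9 (22475559 to 22888283), measured 8.12, 8.13, 8.10, 8.18 and 8.15 in the controls and 7.90, 8.0, 7.88, 7.94 and 8.10 in the knockouts. Knockout 5 reached the lowest control and the other knockouts lay below it. The difference was -0.17 (SE 0.05, limma adjusted p = 0.0402), or 88.8% of the controls (95% interval 82.8% to 95.2%), and 8 of 18 alternatives kept the call.

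The other core subunits had differences of -0.20 for Bbs2 (adjusted p = 0.065 in limma), -0.11 for Bbs4, -0.10 for Ttc8 (BBS8) and -0.01 for Bbs5 (95% interval -0.12 to 0.10), so all 7 were negative. Bbs2 passed under 5 alternatives, among them the fit without knockout 5 and the replicate block. The chaperonin-like genes, whose proteins help the BBSome assemble, were spread on both sides of 0. Mkks (BBS6) had the largest difference of all 46 genes, -0.25, but a standard error of 0.11 and adjusted p = 0.202 in limma. Bbs12 differed by -0.11 and Bbs10 by 0.13 (95% interval -0.04 to 0.29).

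In the transition zone, 1 of 11 genes fell and 10 did not pass, with a median difference of -0.075. Ahi1, which encodes jouberin and lies on chromosome 10 (20952232 to 21080429), measured 7.08, 7.22, 7.10, 7.25 and 7.13 in the controls and 6.90, 6.88, 6.84, 6.95 and 7.08 in the knockouts. Knockout 5 equalled the lowest control to 2 decimals, and the other knockouts lay below it. The difference was -0.23 (SE 0.05, limma adjusted p = 0.0236), or 85.4% of the controls (95% interval 78.6% to 92.7%), and 12 of 18 alternatives kept the call.

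Tmem231, a membrane protein of the Meckel syndrome module, measured 7.96, 7.73, 7.89, 7.80 and 7.77 in the controls and 7.69, 7.64, 7.52, 7.69 and 7.80 in the knockouts. The groups overlapped through knockout 5, and the difference of -0.16 (SE 0.06, limma adjusted p = 0.13) did not pass. The other genes of this module were Tmem67 (-0.10), Tmem216 (-0.10), Cc2d2a (-0.07), Mks1 (-0.04), B9d2 (-0.02) and B9d1 (-0.01). The tectonic genes ranged from Tctn3 (-0.10) and Tctn2 (-0.075) to Tctn1 (0.01, 95% interval -0.08 to 0.09). Mks1 and Tctn1, whose X-box matches are shown above, thus lay close to the median difference of all genes (-0.03).

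**Figure D4:**
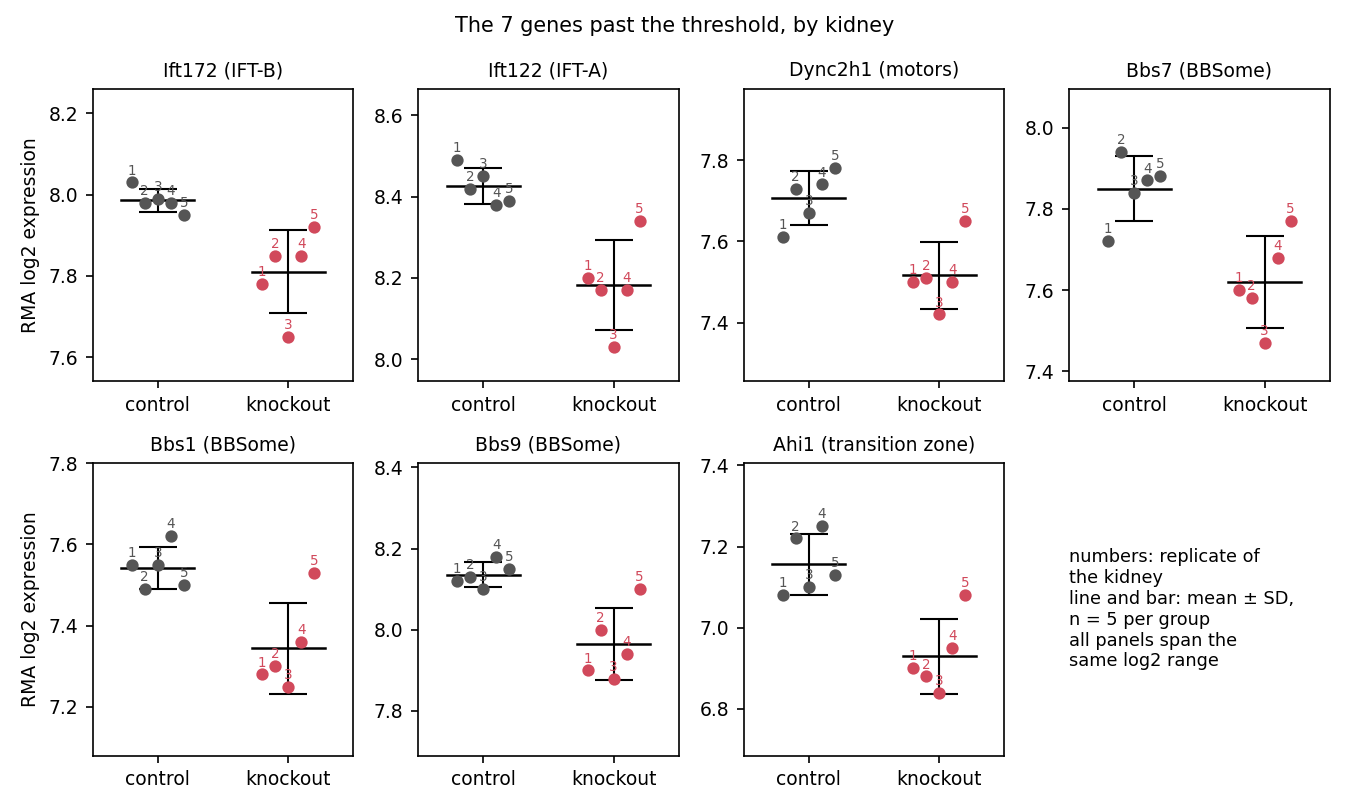
RMA log2 expression of the 7 genes that fell, by group; points are kidneys numbered by replicate, and lines and bars are mean ± SD (n = 5 each). Knockout 3 is the lowest and knockout 5 the highest of the knockouts in every panel, and only Ift172 and Ift122 show no overlap.

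The knockout kidneys differed among themselves, with the same kidneys lowest and highest in each complex. For all 46 genes together, the mean deviation from the control mean was -0.11, -0.07, -0.16, -0.09 and 0.00 in knockouts 1 to 5, and -0.04 to 0.04 in the controls. Knockout 3 was the lowest knockout for 25 of the 46 genes and knockout 5 the highest for 31. In each complex the mean was lowest in knockout 3 and highest in knockout 5. For the BBSome it ran from -0.23 to -0.02. Of the 7 genes that fell, 2 were below the lowest control in knockout 5 and 7 in each other knockout.

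Stk11 itself was also lowest in knockout 3 and highest in knockout 5 among the knockouts, with 9.12, 9.21, 9.07, 9.21 and 9.31 in knockouts 1 to 5 against 9.40 to 9.48 in the controls (log2 difference -0.25, SE 0.05, limma adjusted p = 0.00746, exact permutation p = 0.00794, the smallest that 5 against 5 can give). Other cell types also moved with the groups. All 6 macrophage markers rose, with mean deviations of 1.30, 1.21, 1.41, 0.90 and 0.63 in knockouts 1 to 5 and -0.11 to 0.13 in the controls. All 5 measured fibroblast markers rose, with means of 0.68 to 1.42, and knockout 5 was again nearest the controls. Of 4 endothelial markers 0 passed by limma (1 lower and 0 higher at an unadjusted p under 0.05), and of 2 lymphocyte markers 1 rose. All markers had control means above the median negative control probe set.

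Tubule markers moved too. Of 4 proximal tubule markers 2 fell, with mean deviations of -0.43 in knockout 3, -0.05 in knockout 5 and -0.26 to -0.17 in the other knockouts. All 3 intercalated cell markers fell (means of -1.06 to -0.42), whereas 2 of 3 principal cell markers rose. The third, Avpr2, had a negative difference that did not pass (-0.195, limma adjusted p = 0.0978). In the thick ascending limb 2 of 3 markers fell and 1 rose, and in the distal convoluted tubule 1 of 2 fell. Of the pan-tubule genes Cdh16, Pax8 and Pax2 none passed, with 0 lower and 1 higher (Pax8) at an unadjusted p under 0.05 in limma. Their mean deviation was -0.03 to 0.15 in the knockouts and -0.13 to 0.12 in the controls. The part of these shifts in the differences of the ciliary genes was not tested.

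**Figure D5:**
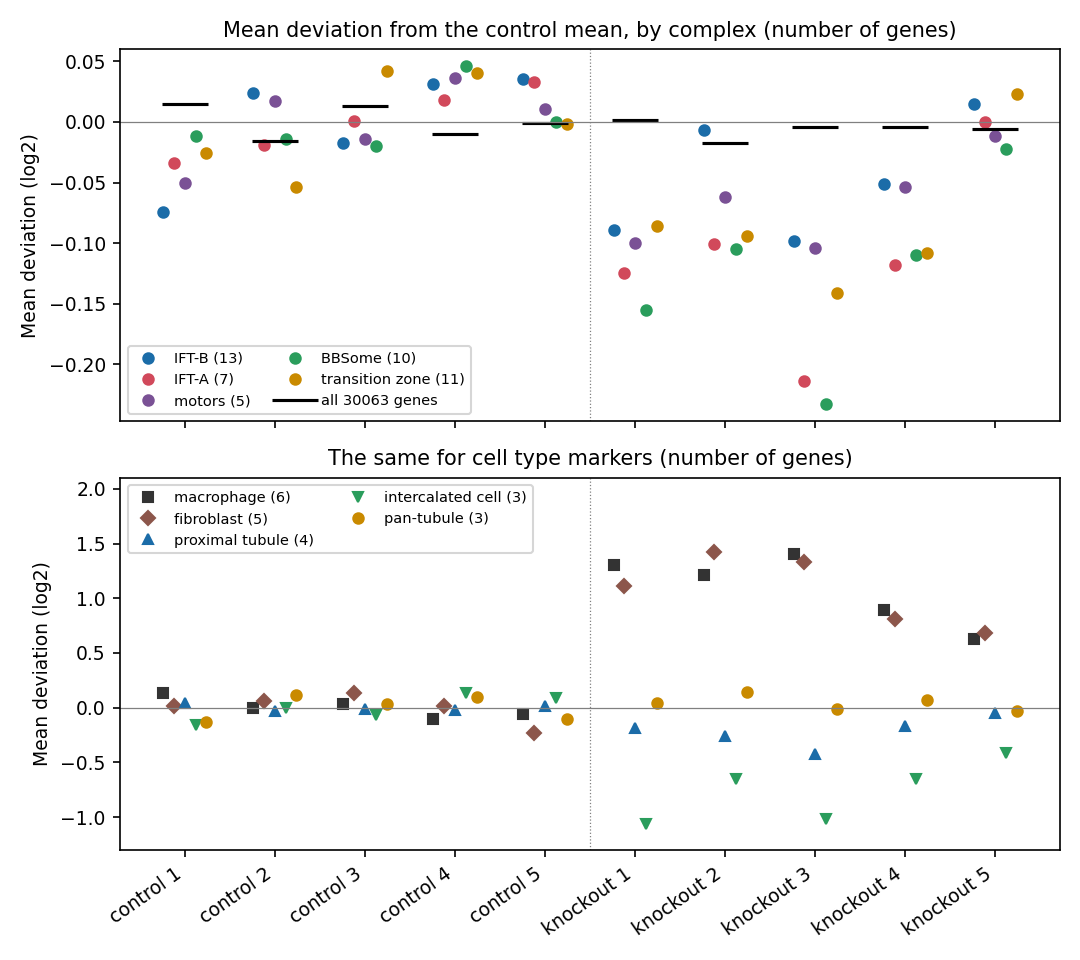
Mean log2 deviation from the control mean in each kidney, for the genes of each complex (top, with all genes as black bars) and for cell type markers (bottom); each point is 1 kidney and brackets give the number of genes. Knockout 3 has the lowest and knockout 5 the highest mean in each complex, and knockout 5 has the smallest macrophage and fibroblast means of the knockouts.

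Further ciliary genes outside the 47 were also examined. Of 23 other subunits of the same complexes 19 were measured, of which 1 fell, 0 rose and 18 did not pass. Of all genes tested 2.67% fell and 5.37% rose. The one that fell was Ttc26 (IFT56), an IFT-B subunit, from 6.82 ± 0.06 to 6.58 ± 0.10 (SD, n = 5 each; log2 difference -0.24, limma adjusted p = 0.015), with no overlap between groups. Of 15 genes for ciliary entry and the inversin compartment 13 were measured, and 3 fell and 0 rose, against the same 2.67% and 5.37%. They were Tbc1d32, which acts in Hedgehog signalling at the cilium (-0.32, limma adjusted p = 0.00369), Rab11fip3, which acts in vesicle delivery to the cilium (-0.19, adjusted p = 0.0389), and Nek8, a kinase of the inversin compartment (-0.15, adjusted p = 0.0301). Each of the 3 was lower in every knockout than in every control. So were 3 of the 19 other subunits, Ttc26 included, against 3.51% of all genes. In 1 of the 19 every knockout was above every control, against 5.08% of all genes. Ttc26 and Tbc1d32 kept their calls under all 18 alternatives, while Rab11fip3 did so under 10 and Nek8 under 8.

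Markers of cells with many motile cilia were in part dim. The control means of 8 of 17 axoneme genes, among them the dynein genes Dnah5, Dnah9 and Dnah11, lay below the median negative control probe set. The 17 exceeded 23.6% (Rsph4a) to 88.7% (Rsph9) of these probe sets, with a median of 52.0%. The dynein genes Dnaic1 and Dnaic2 exceeded 59.7% and 70.1%. By limma 0 of the 17 passed in either direction. At an unadjusted limma p under 0.05, 4 were lower and 0 higher, against 3624 and 3289 of all 30063 genes. The control means of the 46 genes exceeded 64.9% (Tmem216) to 98.6% (Ift20) of the negative control probe sets, with a median of 93.2%. The ranges of the axoneme genes and the 46 genes thus overlapped. The proximal tubule markers, which check the tissue label, had a mean of 12.05 to 12.52 in every kidney. Over the 10 arrays, correlations between arrays were 0.992 to 0.998 over genes.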

How the data were processed

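The authors deposited log2 expression values made with RMA, for the mm10 build, per the submitters' processing notes. RMA subtracts background, gives all arrays the same distribution and merges probes into 1 value per transcript cluster, and it can shrink differences of dim genes. Its version is not given in the sources used, and the log2 scale was taken from the values (array medians 5.35 to 5.42). Arrays carry no read depth, so the number of kidneys limits precision.

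Rows were named through the platform annotation, updated to RefSeq symbols (GRCm38.p6) by Entrez identifier or unique synonym for 1135 rows. Of 72688 rows, 30604 had 1 symbol and gave 30063 genes. The group difference was fitted in limma 3.58.1 (R 4.3.3; eBayes with a trend, no covariate, no filter), with p-values adjusted over all genes. The fit was tested on simulated data. Promoters were searched with Python 3.11.15 and pandas 2.3.3; plots used matplotlib 3.10.9.

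Genes and lists were chosen with earlier results of these data known, and are described by counts without set tests. The genes given for each kidney are those past the threshold, and those of smallest p where a complex had fewer than 2. For 5 list genes the RefSeq name of this build was used. Deviations of same-numbered kidneys from their group means correlated at -0.08 to 0.31. For numbers 1, 2 and 5 (0.25, 0.31 and 0.19) this was above the control's correlation with any other knockout (at most 0.08). For numbers 3 and 4 it was not. This check does not settle whether a number marks a pair or a batch. The reported fit took no pairs, and the number as a block was 1 of the alternatives. Alternatives were 8 other settings and leaving out each of the 10 kidneys.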

Additional observations from a re-analysis of the deposited data

Results flagged for a closer look

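In 3 of 94 groups of 5 kidneys examined (46 genes and Stk11), 1 kidney stood far from the other 4 of its group; chance marks about 5 in 100 such groups. Ift46 was 8.0 in control 1 against 8.28 to 8.36 in the other controls. Cluap1 was 7.48 in the same kidney against 7.68 to 7.72. Bbs4 was 7.24 in control 4 against 7.05 to 7.09. None of these genes passed the test between groups.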

How the results depend on the processing

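Alternatives moved the calls more than the sizes. The median difference of the 46 genes stayed between -0.12 and -0.07, and 36 to 42 genes were negative, over all 18 alternatives. With the arrays centred on their medians, 1 of the 46 genes fell in place of 7, with 0 in IFT-B, the motors, the BBSome and the transition zone; the cause was not tested. With the replicate number as a block, 7 genes fell, of which 5 were shared with the reported 7; IFT-B had 0 and IFT-A 2. Without a variance trend IFT-B had 0, and with array weights IFT-A had 3 of the 10 genes that fell. Leaving out 1 kidney, which also lowers the number of samples, gave 1 to 9 genes: 0 to 1 in IFT-B, 1 to 2 in IFT-A, 0 to 1 in the motors, 0 to 4 in the BBSome and 0 to 1 in the transition zone. Over all genes, 435 to 1473 fell and 1089 to 1947 rose on leaving out 1 kidney, against 803 and 1614. No gene of the 46 rose under any alternative, and Stk11 passed under all 18 (adjusted p 0.00154 to 0.0296). With 5 kidneys a group, the 95% interval of a difference reached a median of 0.11 (log2) to either side, larger than most differences here.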
